A study of Homo sapiens with 4 samples.

Results

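The transcripts described here are the noncoding and uncharacterized ones among the genes that were listed for ATRA-treated and control HL-60 cells. They were chosen by a rule on the name: a gene was taken when its name started with LINC, started with LOC followed by a digit, or contained -AS followed by a digit. The rule uses no values, but it was set with earlier results of these data known. The rule found 34 of the 1648 genes in the deposited table, of which 14 had antisense names, 6 had LINC names and 14 had LOC names. HL-60 is an established human leukemia line of peripheral blood origin that is labelled as acute promyelocytic leukemia. In the ATRA group the cells received 1 µM all-trans retinoic acid for 4 days, and in the control group they received the same volume of ethanol, the solvent of ATRA. Both groups shared the same culture medium, which was changed on day 2 with ATRA or ethanol added again. The poly(A) RNA of 2 samples from each group was sequenced, all from this single line. Nothing in the labels says that the samples of a group came from separate cultures, so the spread between them may be technical.

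Long noncoding RNAs are transcripts without a known protein product, and many are spliced and polyadenylated like messenger RNAs, which is why poly(A) sequencing records them. Antisense transcripts run from the strand opposite to a gene and carry its name, LINC names stand for long intergenic noncoding RNAs, and LOC names are placeholders for loci that had no symbol when the annotation was made. In myeloid cells, some long noncoding RNAs are known to change as cells differentiate, and HOTAIRM1 in the HOXA cluster is a well-known example in granulocytic differentiation.

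The names were checked against RefSeq, where 32 of the 34 transcripts had an entry. Of these, 27 are long noncoding RNAs, 4 are transcribed pseudogenes (LOC100289473, LOC146880, LOC440434 and LOC100093631) and 1, MMP24-AS1, is now MMP24OS with a protein-coding type. No entry was used for LOC286367 or TNRC6C-AS1. RefSeq gave 11 transcripts another current symbol. LOC100506585 is PTPRN2-AS1, LOC100049716 is NINJ2-AS1, LOC100131564 is CCDC18-AS1 and LINC00476 is ERCC6L2-AS1, so that these also run opposite to a named gene. LOC401320 is GARS1-DT and BAIAP2-AS1 is BAIAP2-DT, where DT marks a divergent transcript that starts beside a gene and runs away from it. LOC646762 is MIR550A3HG, a host gene of a microRNA. LOC146880, LOC440434 and LOC100093631 are ARHGAP27P1, NPEPPSP1 and GTF2IP4.

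The promoters of 3 transcripts are shown first. These transcripts differed strongly between the groups, overlap a listed gene in at least 1 annotation and have a searched motif in the window. Each runs from 250 bases before to 50 bases after the RefSeq start on GRCh38.p14. Capitals mark a match to a searched motif.
DLEU7-AS1, chr13:50807605-50807904, plus strand, higher with ATRA: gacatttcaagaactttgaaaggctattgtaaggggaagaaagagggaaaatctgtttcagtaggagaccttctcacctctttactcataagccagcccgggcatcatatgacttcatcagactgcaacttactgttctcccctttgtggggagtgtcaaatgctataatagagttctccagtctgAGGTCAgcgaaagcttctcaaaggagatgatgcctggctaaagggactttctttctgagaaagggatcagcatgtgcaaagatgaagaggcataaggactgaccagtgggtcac
CYP1B1-AS1, chr2:38130855-38131154, plus strand, higher with ATRA: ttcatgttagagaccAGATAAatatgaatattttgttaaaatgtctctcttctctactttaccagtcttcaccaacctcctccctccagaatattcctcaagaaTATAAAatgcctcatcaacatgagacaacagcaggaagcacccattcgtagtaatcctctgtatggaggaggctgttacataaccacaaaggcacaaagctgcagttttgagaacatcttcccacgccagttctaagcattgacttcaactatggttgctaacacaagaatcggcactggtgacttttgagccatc
LOC100130872, chr4:1208913-1209212, minus strand, lower with ATRA: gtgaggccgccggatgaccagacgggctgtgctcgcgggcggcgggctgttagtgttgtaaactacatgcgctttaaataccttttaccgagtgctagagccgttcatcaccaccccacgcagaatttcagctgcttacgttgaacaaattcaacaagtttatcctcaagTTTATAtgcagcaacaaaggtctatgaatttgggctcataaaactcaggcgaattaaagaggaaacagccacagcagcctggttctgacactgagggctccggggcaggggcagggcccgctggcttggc
In the promoter of DLEU7-AS1 the capitals are AGGTCA, the half-site that retinoic acid receptors and other nuclear receptors bind, and its first base lies at position -64 from the start. In that of CYP1B1-AS1 the first capitals, at position -235, are the motif of GATA factors searched as AGATAA. The next, at position -146, are the TATA box motif TATAAA. In that of LOC100130872 they are TTTATA, which is TATAAA on the other strand, at position -80.

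Promoters were held for 21 of the 34 transcripts, and 7 of the 21 had at least 1 match to the motifs searched on both strands. AGGTCA was in 1 of the 21, or 4.76%, against 13.8% of all 35116 promoters of the same length. Direct repeats of AGGTCA, with 5 or 2 bases between the copies, were in 0 of the 21 and in 2 and 1 of all promoters. GAGGAAG, bound by ETS factors such as PU.1, was in 1 of the 21 (EPB41L4A-AS1) against 13.6% of all. AGATAA was in 1 against 10.3%, TTGCNNAA of the C/EBP factors in 2 (LOC100129034 and LOC401320) against 10.5%, and TATAAA in 3 (CYP1B1-AS1, FAM13A-AS1 and LOC100130872) against 11.5%. None of these motifs overlapped another in the printed windows. Each match is only a description of letters, and no match within the window says nothing about a factor.

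The reads that fell in the listed genes numbered 5576516 and 4940243 in the ATRA libraries and 3799430 and 3288055 in the control libraries. The values below are normalized read counts, which are reads divided by the library's size factor, and the libraries of each group are called a and b. All 4 granulocytic markers fixed for the check (ITGAM, CD38, CYBB and NCF1) were higher in ATRA-treated cells. They summed to 56192 and 58272 in the ATRA libraries against 722 and 541 in the control libraries, and 1 of them had a library at 0. Of the 5 progenitor markers 3 were listed (GATA2, MYB and MYC), all lower, while MPO and ELANE were not listed. Markers of other cells moved as well. Of 4 monocyte and macrophage markers 3 were listed, none at 0 in any library, and they summed to 1760 and 1427 with ATRA against 72.9 and 49.2 in control. Of 4 eosinophil, basophil and mast cell markers 3 were listed and summed to 244 and 169 with ATRA against 1207 and 2113 in control, with CPA3 at 0 in ATRA library b. Of 4 lymphoid markers 2 were listed, CD3E higher and NKG7 lower, summing to 235 and 213 against 229 and 287, and 0 of 4 erythroid and megakaryocyte markers were listed. Their part in the results below was not tested, and in bulk RNA fewer cells of a type and less RNA per cell cannot be told apart.

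Among the 34 transcripts, 29 (85.3%) were higher and 5 (14.7%) lower in ATRA-treated cells than in control cells. In the whole table, 61.8% of the genes were higher and 38.2% lower. More than 4-fold higher were 16 transcripts (47.1%) against 28.9% of all genes, and more than 4-fold lower were 3 (8.82%) against 11.2%. The median log2 fold change, ATRA over control, was 1.91 for the transcripts, 1.23 for all 1648 genes and 1.22 for the 1614 genes outside the rule. The count over 4-fold was 20 when control library b was left out and 15 when control library a was. The 29 and 5 did not move, which the selection of the genes settled beforehand. The table is a selection: 1645 of its rows had an adjusted p under 0.01 in the authors' own comparison, and the ATRA and control libraries overlapped in none of its rows (100% not overlapping), so that the absence of overlap in all 34 transcripts says nothing about them. No gene of the table differed by less than 0.91 on the log2 scale in either direction, so smaller differences are missing from every count and median given here. The median control mean was 107 normalized reads for the transcripts and 817 for all genes, and a limit on p is harder to pass with few reads. How far this carries the shares and medians above was not tested. An exact two-sided permutation test of 2 against 2 libraries cannot give a p below 0.333, and the transcripts are therefore described by their values and counts, with no test.

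Split by name, the antisense transcripts had a median log2 fold change of 2.61, with 12 higher and 2 lower. The LINC transcripts had 1.68, with 5 higher and 1 lower, and the LOC transcripts 1.67, with 12 higher and 2 lower. Of the antisense transcripts 9 of 14 (64.3%) were more than 4-fold higher, against 28.9% of all genes. Their median control mean was 56.6 normalized reads, against 817 for all genes. The split follows the listed names only, and 4 transcripts with LOC or LINC names have an antisense symbol today. By RefSeq type, 22 of the 27 long noncoding RNAs (81.5%) were higher and 5 lower, against 61.8% of all genes higher. All 4 pseudogenes were higher. Listed pseudogenes outside the rule went both ways, from NCF1C (log2 7.66) to DUSP5P1 (log2 -4.33), so the direction of these 4 says nothing about their type.

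**Figure D1:**
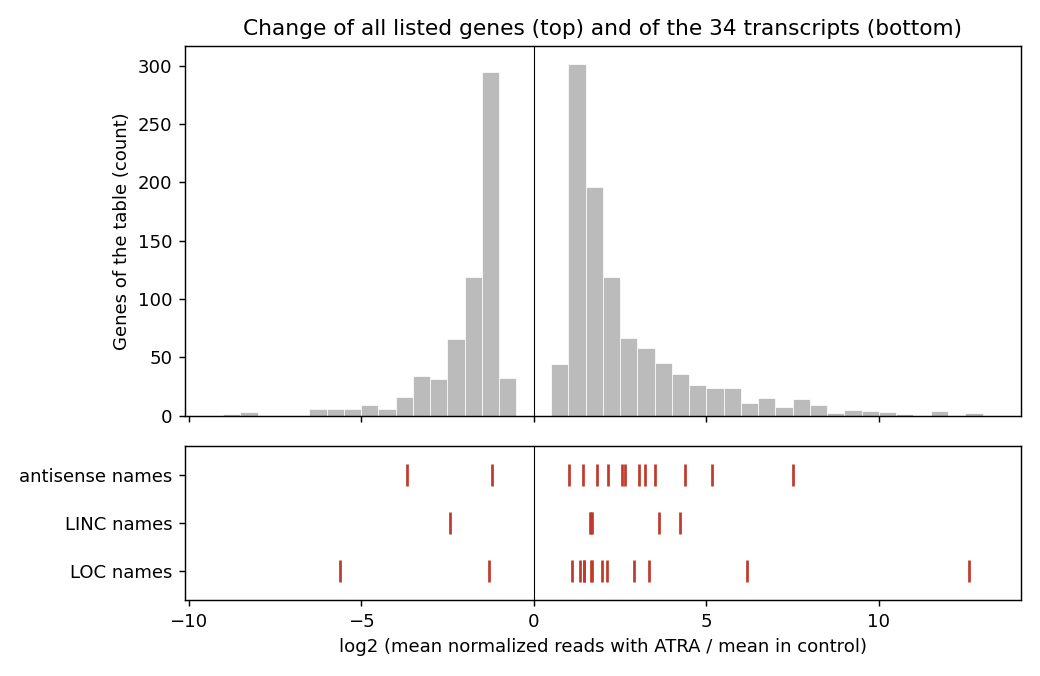
Log2 fold change, ATRA over control, on the x axis. The upper panel counts all 1648 genes of the table in bins, and each tick of the lower panel is 1 of the 34 transcripts, by kind of name. Ticks lie to the right of 0 for 29 transcripts and to the left for 5.

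The transcripts were few in reads. The median transcript had a mean of 461 normalized reads in ATRA-treated cells and 107 in control cells, against 1089 and 817 for all genes. Together they held 0.668% and 0.681% of the listed reads in the ATRA libraries, against 0.375% and 0.484% in the control libraries. Without LINC00926, the transcript with the most control reads, the shares were 0.653% and 0.660% against 0.271% and 0.326%. The control libraries lay further apart than the ATRA libraries. The median distance between the libraries of a group, on the log2 scale, was 0.19 with ATRA and 0.41 in control for the transcripts, and 0.23 and 0.31 for all genes. Control libraries differed by more than 2 times in 6 of the 32 transcripts with reads in both, and ATRA libraries in 1 of 34, FAM222A-AS1. Over all genes with reads in both, the same held for 100 of 1598 in control and 68 of 1641 with ATRA.

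**Figure D2:**
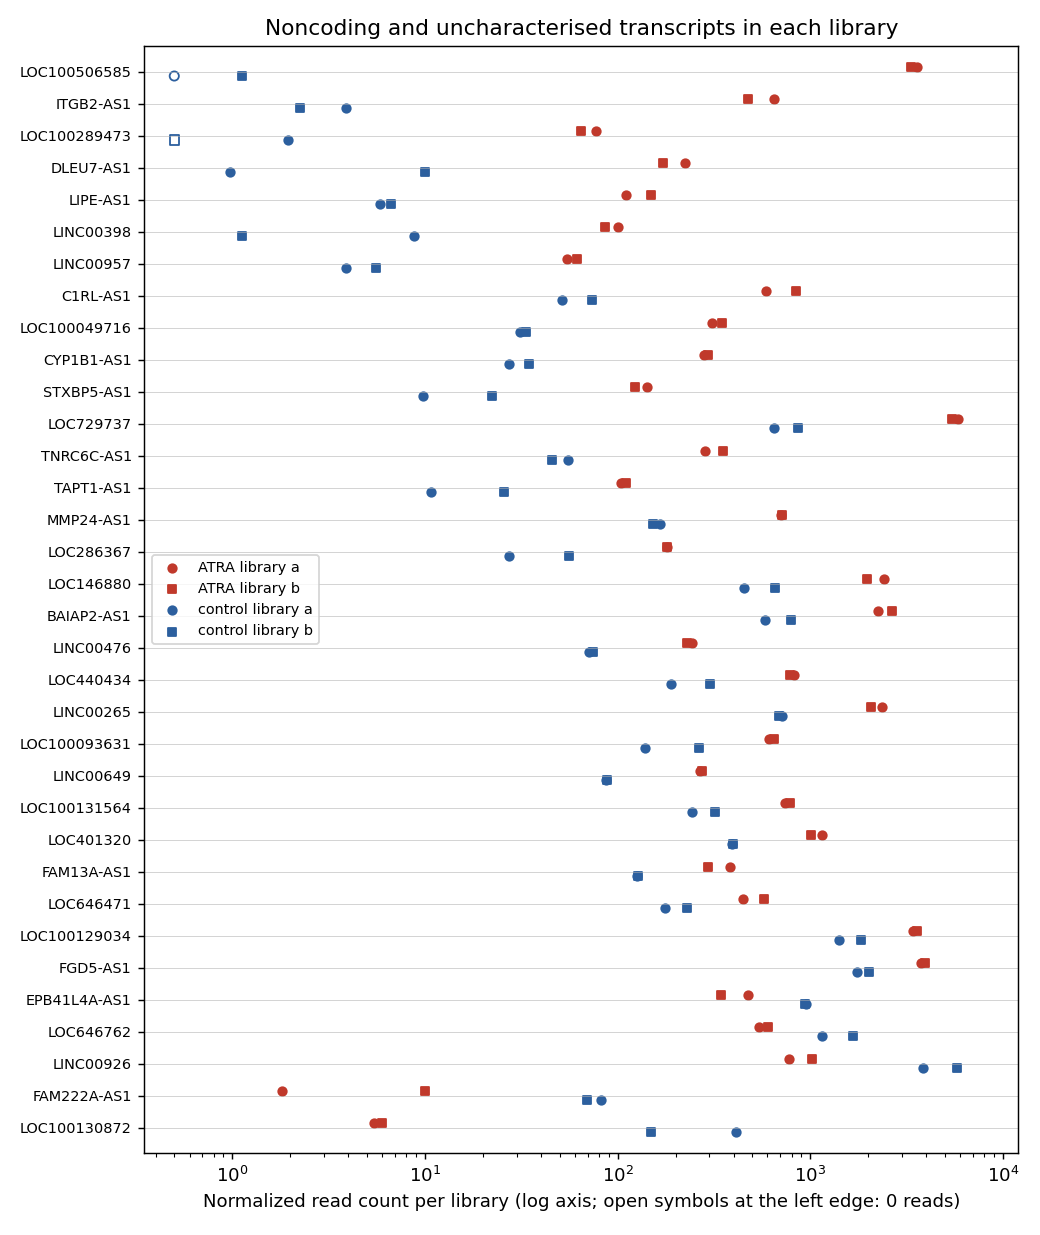
Normalized read count (x axis, log scale) of the 34 transcripts (rows, ordered by fold change) in the 4 libraries. Red symbols are ATRA libraries a and b and blue symbols control libraries a and b, and open symbols at the left edge stand for 0 reads. In each row the red and blue symbols do not overlap, and red lies to the right in 29 rows.

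The transcript with the largest difference was LOC100506585, now PTPRN2-AS1. It had 3577 and 3343 normalized reads in the ATRA libraries a and b, against 0 and 1.12 in the control libraries a and b. The control value stands on a single read in 2 libraries, while the ATRA libraries held 7284. The ratio was 6193-fold (log2 12.60), with an exact 95% interval of 1196 to 263308 that covers counting error only, and it was the second largest of all 1648 genes. On GRCh37 it lies on the plus strand of chromosome 7, at 157647221 to 157655703, with 1790 exon bases. That place is inside PTPRN2, which encodes a receptor-type phosphatase of secretory granules and runs on the minus strand. The exons of both share 0 bases, and PTPRN2 is not in the table. Leaving out control library b gave a log2 fold change of at least 10.21, and leaving out control library a gave 11.60.

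ITGB2-AS1 came next. This transcript lies inside ITGB2, the gene of CD18, the chain shared by the beta-2 integrins of leukocytes. It had 648 and 478 normalized reads in ATRA-treated cells against 3.89 and 2.23 in control cells, where it stands on 6 reads. The ratio was 184-fold (95% counting interval 83.2 to 496, log2 7.52). On GRCh37 it covers 46340966 to 46349595 of chromosome 21 on the plus strand, and its exons share 303 bases with those of ITGB2 on the minus strand. ITGB2 itself had 32246 and 27666 normalized reads with ATRA against 1883 and 1618 in control, a log2 fold change of 4.10. Both were higher upon ATRA induction and the antisense transcript by more. For every 100 reads of ITGB2 there were 2.01 and 1.73 reads of ITGB2-AS1 in the ATRA libraries, against 0.207 and 0.138 in the control libraries.

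DLEU7-AS1 and DLEU7 lie in 13q14, a region that is often deleted in chronic lymphocytic leukemia. DLEU7-AS1, whose promoter is printed above, had 224 and 173 normalized reads in ATRA-treated cells against 0.972 and 10.1 in control cells. The control libraries, with 10 reads in all, were far apart. Its log2 fold change was 5.17, or 35.9-fold (20.6 to 80.5), but 7.67 from control library a alone and 4.30 from control library b alone. DLEU7 had 126 and 141 normalized reads with ATRA against 30.1 and 17.9 in control, a log2 fold change of 2.47. There were 178 and 123 reads of DLEU7-AS1 for every 100 of DLEU7 in the ATRA libraries, against 3.23 and 56.3 in the control libraries. The groups did not overlap in this ratio, and the control libraries lay far apart in it.

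CYP1B1-AS1 runs opposite to CYP1B1, a cytochrome P450 that oxidizes steroids, retinoids and many foreign compounds. Its GENCODE locus covers 38300590 to 38458793 of chromosome 2 on GRCh37, plus strand, and 677 exon bases are shared with CYP1B1. The promoter printed above is that of the RefSeq start on GRCh38.p14. That start may differ from the GENCODE start, and overlap with CYP1B1 from it was not checked. CYP1B1-AS1 had 281 and 293 normalized reads in ATRA-treated cells against 27.2 and 34.6 in control cells, 9.28-fold higher (7.15 to 12.4, log2 3.21). CYP1B1 had 2363 and 2344 with ATRA against 1214 and 1133 in control, a log2 fold change of 1.00. The replicate libraries lay close together in both. For every 100 reads of CYP1B1 there were 11.9 and 12.5 reads of the antisense transcript in the ATRA libraries, against 2.24 and 3.06 in the control libraries.

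C1RL-AS1 overlaps a pair of listed genes on chromosome 12, where it covers 7260648 to 7275120 on the plus strand. One is C1RL, a serine protease related to complement C1r, with 205 shared exon bases, and the other is RBP5, a cellular retinol-binding protein, with 1572. C1RL-AS1 had 588 and 845 normalized reads in ATRA-treated cells against 51.5 and 73.7 in control cells, 11.4-fold higher (9.52 to 13.96, log2 3.52). RBP5 had 148 and 220 with ATRA against 16.5 and 15.6 in control and the same log2 fold change of 3.52. C1RL had 3835 and 4482 with ATRA against 132 and 228 in control, a log2 fold change of 4.53. All of these were higher upon ATRA induction. Per 100 reads of RBP5 there were 396 and 383 reads of C1RL-AS1 in the ATRA libraries, against 312 and 471 in the control libraries, which enclose the ATRA values. Per 100 reads of C1RL there were 15.3 and 18.8 with ATRA against 39.0 and 32.4 in control. CLSTN3, a calsyntenin, starts within 10 kb of the far end of the transcript without overlap and had a log2 fold change of 3.18.

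LOC100049716, now NINJ2-AS1, runs opposite to NINJ2, an adhesion molecule of the ninjurin family. It covers 740024 to 773362 of chromosome 12 on the plus strand and shares 437 exon bases with NINJ2. It had 308 and 350 normalized reads in ATRA-treated cells against 31.1 and 33.5 in control cells, 10.2-fold higher (7.85 to 13.4, log2 3.35). NINJ2 had 966 and 603 with ATRA against 106 and 43.6 in control, for a log2 fold change of 3.39, or 4.17 when control library a was left out. The libraries of the antisense transcript lay closer together than those of NINJ2. The reads per 100 of NINJ2 were 31.9 and 58.0 in the ATRA libraries against 29.4 and 76.9 in the control libraries, and these ranges overlap.

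LIPE-AS1 is a long locus of 255254 bases, from 42901266 to 43156519 of chromosome 19 on the plus strand, with 4991 exon bases. It runs past LIPE, the gene of hormone-sensitive lipase, which is not in the table, and past CEACAM1 and CEACAM8, adhesion molecules of granulocytes of which the last is the marker CD66b. LIPE-AS1 had 111 and 149 normalized reads in ATRA-treated cells against 5.83 and 6.70 in control cells, 20.7-fold higher (11.6 to 40.5, log2 4.37). CEACAM1, with which it shares 185 exon bases, had 16136 and 14937 with ATRA against 14.6 and 13.4 in control, a log2 fold change of 10.12. CEACAM8, with which it shares 0, had 313 and 121 with ATRA against 1.94 and 1.12 in control, and its log2 fold change was 7.15, or 6.30 when ATRA library a was left out. Both genes differed by more than the transcript. Per 100 reads of CEACAM1 there were 0.688 and 0.995 reads of LIPE-AS1 in the ATRA libraries, against 40 and 50 in the control libraries.

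LINC00957 is an intergenic name, but the transcript overlaps RASA4CP, a pseudogene of the GTPase-activating gene RASA4, by 642 exon bases. It covers 44078770 to 44081905 of chromosome 7 on the plus strand. LINC00957 had 54.6 and 61.8 normalized reads in ATRA-treated cells against 3.89 and 5.59 in control cells, 12.3-fold higher (6.32 to 27.8, log2 3.62). RASA4CP had 170 and 238 with ATRA against 12.6 and 25.7 in control, for a log2 fold change of 3.41, or 4.01 when control library b was left out. The reads per 100 of RASA4CP overlapped between the groups, with 32.1 and 25.9 in the ATRA libraries against 30.8 and 21.7 in the control libraries. DBNL, an actin-binding adapter, lies within 10 kb and had a log2 fold change of 1.79.

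LOC100130872 is the transcript with the largest difference in the other direction. It overlaps SPON2, the gene of an extracellular matrix protein, on chromosome 4. It had 5.46 and 5.98 normalized reads in ATRA-treated cells, 6 reads in each library, against 413 and 149 in control cells. That was 49.1-fold lower with ATRA (28.9 to 98.9, log2 -5.62), and -4.70 on the log2 scale when control library a was left out. SPON2 had 30.9 and 30.9 with ATRA against 847 and 588 in control, 23.2-fold lower. Both were lower, and the control libraries were in the same order in both. Both run on the minus strand, so strand could not separate the reads of a stretch that they share. How far such reads carry this pair was not tested. Per 100 reads of SPON2 there were 17.6 and 19.4 reads of LOC100130872 in the ATRA libraries, against 48.8 and 25.3 in the control libraries.

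LOC401320 was the one that went the other way from its partner. Its current name GARS1-DT marks it as divergent from the gene of glycyl-tRNA synthetase, which charges tRNA with glycine and is listed as GARS. In GENCODE the transcript covers 30555925 to 30634902 of chromosome 7 on the minus strand and shares 312 exon bases with GARS on the plus strand, while in RefSeq the spans do not overlap. LOC401320 had 1148 and 1008 normalized reads in ATRA-treated cells against 394 and 399 in control cells, 2.72-fold higher (2.51 to 2.97, log2 1.44). GARS had 3919 and 4326 with ATRA against 10530 and 12580 in control, 2.80-fold lower (log2 -1.49). For every 100 reads of GARS there were 29.3 and 23.3 reads of LOC401320 in the ATRA libraries, against 3.74 and 3.17 in the control libraries.

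Over all of these, 9 of the 34 transcripts (26.5%) overlapped at least 1 listed gene outside the rule. Of the 1614 genes outside the rule, 99 (6.13%) overlapped another of them. Antisense names mark transcripts that lie opposite a gene, so a higher share follows in part from the rule and is no result about the transcripts. The 9 transcripts formed 11 pairs, and in 10 of the 11, all but LOC401320 with GARS, both genes differed in the same direction. Overlapping pairs among the other genes numbered 52, and 47 of those (90.4%) had the same direction. Within 10 kb but without overlap, 4 transcripts had a listed neighbour, and 3 of the 4 pairs had the same direction, against 79 of 94 pairs (84.0%) of the other genes. The exception among these was LOC646471 beside SEPN1, a selenoprotein gene, which had a log2 fold change of -1.14. The study's methods do not state that counting used strand, so reads from both strands of a shared stretch cannot be told apart, and how far such reads carry the pairs was not tested. Of the pairs placed in GENCODE, that of LIPE-AS1 with CEACAM8 shares 0 exon bases. The same holds for some transcripts with an unlisted gene, among them LOC100506585 with PTPRN2, TAPT1-AS1 with TAPT1 and FAM222A-AS1 with FAM222A. The 11 pairs share members, since LIPE-AS1 and C1RL-AS1 have a pair of partners each.

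**Figure D3:**
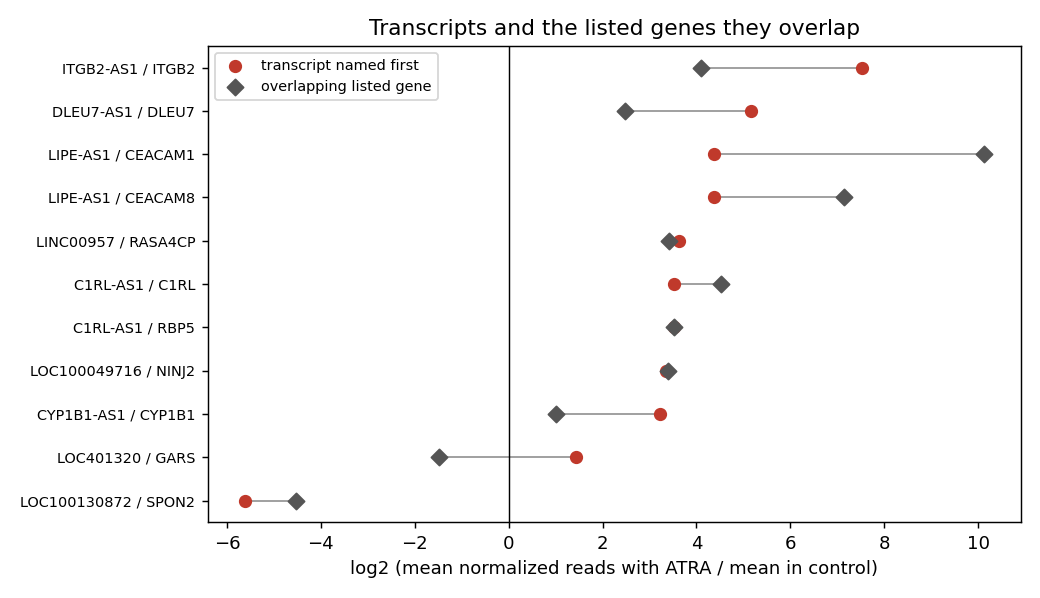
Log2 fold change, ATRA over control (x axis), of the 9 transcripts (red circles) and the listed genes they overlap (gray diamonds), 1 row for each of the 11 pairs. Both symbols lie on the same side of 0 in 10 rows and on opposite sides for LOC401320 with GARS, and they stand furthest apart for LIPE-AS1 (4.37) and CEACAM1 (10.12).

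**Figure D4:**
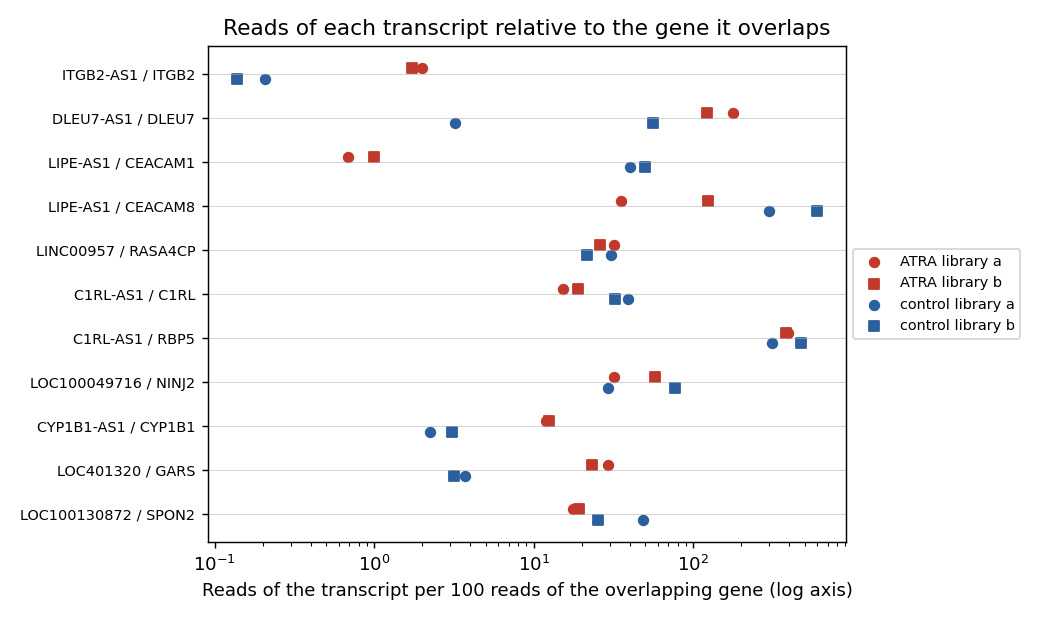
Reads of each transcript per 100 reads of the listed gene it overlaps (x axis, log scale) in the ATRA libraries (red) and control libraries (blue). Red lies to the right of blue for ITGB2-AS1, DLEU7-AS1, CYP1B1-AS1 and LOC401320, to the left for LIPE-AS1, LOC100130872 and C1RL-AS1 with C1RL, and the colors overlap or interleave in the other 3 rows.

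Of the 14 genes named in the antisense names, 4 were in the table (ITGB2, DLEU7, C1RL and CYP1B1), and all 4 were higher with ATRA like their antisense transcript. The other 10 were not listed, so that no value of the sense gene can be set beside these transcripts. STXBP5-AS1, opposite the gene of tomosyn, a regulator of vesicle fusion, had 142 and 124 normalized reads in ATRA-treated cells against 9.72 and 22.3 in control cells. It was 8.28-fold higher (5.85 to 12.9, log2 3.05), or 3.77 on the log2 scale when control library b was left out. Its locus is the longest placed here, with 380076 bases of chromosome 6 from 147145675 to 147525750, and 202 of its 13622 exon bases are shared with STXBP5. TAPT1-AS1 had 104 and 111 normalized reads with ATRA against 10.7 and 25.7 in control, 5.89-fold higher, and its log2 fold change was 2.56, or 3.33 when control library b was left out. For both, the ATRA libraries lay close together and the control libraries more than 2 times apart.

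TNRC6C-AS1 had 285 and 353 normalized reads in ATRA-treated cells against 55.4 and 45.8 in control cells, 6.30-fold higher (log2 2.66). RefSeq gives this name as an older one of TMC6, a transmembrane channel-like gene that the table lists separately, with 12123 and 10171 normalized reads with ATRA against 4337 and 4054 in control (log2 1.41). MMP24-AS1, the one with a protein-coding type today, had 705 and 712 with ATRA against 166 and 152 in control. Its replicate libraries were nearly equal, and the ratio was 4.45-fold (3.92 to 5.03, log2 2.15). It shares 806 exon bases with the unlisted MMP24, a membrane-type matrix metalloproteinase, between 33789548 and 33865934 of chromosome 20.

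BAIAP2-AS1, the divergent transcript beside BAIAP2, had 2253 and 2658 normalized reads in ATRA-treated cells against 585 and 794 in control cells, 3.56-fold higher (log2 1.83). FAM13A-AS1 had 383 and 293 with ATRA against 125 and 127 in control (log2 1.42). FGD5-AS1, a long noncoding RNA found in many tissues, had the smallest difference among the 29, with 3755 and 3940 against 1756 and 2016 (log2 1.03). All of these were under the 4-fold limit, and their groups lay apart by more than either group's spread. The groups did not overlap for any gene of the table, so their being apart is no result about these transcripts.

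Among antisense names, EPB41L4A-AS1 and FAM222A-AS1 were the ones lower with ATRA. EPB41L4A-AS1, a host of the small nucleolar RNA gene SNORA13, had 477 and 344 normalized reads in ATRA-treated cells against 949 and 943 in control cells, 2.31-fold lower (log2 -1.20). FAM222A-AS1 had 1.82 and 9.97 with ATRA, which are 2 and 10 reads, against 81.7 and 69.3 in control. It was 12.8-fold lower (7.38 to 26.3, log2 -3.68), or -5.37 and -2.92 on the log2 scale when ATRA library b or a was left out. The size of this difference therefore rests on few reads. Its direction was the same in each library, as for all genes of the table, so this says nothing particular about FAM222A-AS1. FAM222A-AS1 covers 110171971 to 110211313 of chromosome 12 on the minus strand.

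LINC00398 had the largest difference among the LINC names. It lies at 31377343 to 31384782 of chromosome 13 and had 101 and 85.8 normalized reads in ATRA-treated cells against 8.75 and 1.12 in control cells, where it stands on 10 reads. The ratio was 18.9-fold (9.60 to 38.2), with a log2 fold change of 4.24 that became 6.38 from control library b alone and 3.42 from control library a alone. The other LINC transcripts higher with ATRA differed by less and had more even libraries. LINC00476, now ERCC6L2-AS1, had 244 and 230.4 with ATRA against 71.0 and 74.9 in control (log2 1.70). LINC00265 had 2366 and 2061 against 712 and 688 (log2 1.66), and LINC00649 had 267 and 273 against 87.5 and 88.3 (log2 1.62).

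LINC00926 was the LINC transcript lower with ATRA, and it had the most control reads of the 34. It had 779 and 1019 normalized reads in ATRA-treated cells against 3867 and 5817 in control cells, 5.39-fold lower (5.08 to 5.62, log2 -2.43). Its locus is at 57592563 to 57599967 of chromosome 15 on the plus strand, with 3669 exon bases. It stands on 9183 control reads, and the control libraries differed from each other by more than its counting interval spans.

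LOC729737 held the most ATRA reads of the 34, with 5832 and 5419 normalized reads in ATRA-treated cells against 648 and 868 in control cells. It was 7.42-fold higher (7.11 to 7.94, log2 2.89). RefSeq places the locus on chromosome 1. LOC286367, for which no annotation was used, had 181.1 and 180.5 with ATRA against 27.2 and 55.9 in control, and its log2 fold change was 2.12, or 2.73 when control library b was left out. LOC646471 had 447 and 576 against 176 and 229 (log2 1.34), and LOC100129034, on chromosome 9, had 3436 and 3575 against 1410 and 1839 (log2 1.11). These libraries lay closer together within each group than the groups lay apart, in a table where the groups overlapped for no gene. LOC100131564, now CCDC18-AS1, had 743 and 789.9 with ATRA against 242 and 321 in control (log2 1.45), and CCDC18 was not listed.

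The 4 pseudogenes share sequence with the genes they derive from, so that RSEM may have divided reads between copies, and their values are uncertain for this reason. LOC100289473, on chromosome 20, had 77.3 and 64.8 normalized reads in ATRA-treated cells against 1.94 and 0 in control cells, which is 2 reads. The ratio was 73.1-fold (18.7 to 572, log2 6.19), and on the log2 scale it was 5.19 from control library a alone and at least 4.41 from control library b alone. LOC146880, the pseudogene of ARHGAP27, had 2416 and 1966 with ATRA against 454 and 655 in control, 3.95-fold higher just under the 4-fold limit (log2 1.98). PLEKHM1P, a pseudogene as well, lies within 10 kb of it and had a log2 fold change of 2.03. LOC440434, the pseudogene of the puromycin-sensitive aminopeptidase gene NPEPPS, had 819.8 and 782 against 191 and 303 (log2 1.70). NPEPPS was listed as well, with 6677 and 8669 against 3373 and 4325 and a log2 fold change of 1.00. LOC100093631, the pseudogene of the transcription factor gene GTF2I, had 608 and 652 against 138 and 265 (log2 1.64). ARHGAP27 and GTF2I were not listed.

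LOC646762, or MIR550A3HG, was the last of the 5 transcripts lower with ATRA. It had 544 and 604 normalized reads in ATRA-treated cells against 1158 and 1675 in control cells, 2.47-fold lower (2.28 to 2.62, log2 -1.30). The microRNAs that RefSeq places within it and within LOC146880 are shown because both hosts differed, in opposite directions. Capitals mark the seed, bases 2 to 8.
hsa-miR-550a-3p, within LOC646762: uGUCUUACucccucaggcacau
hsa-miR-550a-3-5p, within LOC646762: aGUGCCUGagggaguaagag
hsa-miR-6080, within LOC146880: uCUAGUGCgggcguucccg
No seed was shared among the 3. Poly(A) sequencing counts the host transcript and not these mature microRNAs, for which no value was measured.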

How the data were processed

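RNA of 2 ATRA and 2 control samples was selected for poly(A). According to the methods, adapters were trimmed by cutadapt, ribosomal reads were set aside through Bowtie, and the authors counted with RSEM 1.2.7 on UCSC hg19 (GRCh37) genes and compared groups with DESeq2 1.4.5. The deposited table lists 1648 genes by symbol. The signal deposited by the authors, which was used, is the mean of size-factor normalized counts over all libraries and over each group. The remaining columns hold the authors' ratio of the groups, its log2, and a p-value before and after adjustment, and they were not used beyond counting that 1645 rows lay under an adjusted p of 0.01 and 3 did not. The methods also set a limit of 0.9 on the log2 fold change, and 0 restored rows lay under it.

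In the 73360 digits of the means there were 0 zeros and 20.2% were 1, so every 0 was taken to have been written as 1. Each group mean was restored to a pair of whole read counts with size factors of 1.10 and 1.00 (ATRA a and b) and 1.03 and 0.895 (control a and b). These explained 14 of 14 low ATRA means and 21 of 21 low control means, and gave exactly 1 solution in 1648 rows of each group. The leading digits of the printed overall mean were given back in 1648 rows. That mean follows from the group means, so it checks them and not their split into libraries a and b. The restoring step was also tested on simulated data. On the log2 scale 430 rows (12 transcripts) shifted by over 0.01 through restoring, and in 44 rows (2 transcripts) the fold shifted by over 1.5 times. Libraries a and b are not tied to the replicate numbers of the labels.

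Fold changes are ratios of restored means, with no pseudocount and no filter, and a group without reads was set to a floor of 3 reads over the group. Intervals are exact (Clopper-Pearson) at 95% on the summed reads and cover counting error only. Positions are from GENCODE 44 on GRCh37, which had an entry for 23 of the 34 transcripts, and names, neighbours, promoters (21) and microRNAs are from RefSeq GRCh38.p14 (1641 rows matched, of which 5 names that fit several genes, GARS among them, were assigned by hand). A gene overlapped where either annotation placed it so. The count model could not be refitted, since absent genes have no value here. Python 3.11.15, pandas 2.3.3 and SciPy 1.17.1 were used.

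Every transcript is named. By rule, values per library are given for the 12 largest differences upward and the 8 largest downward (5 existed), for pairs with a listed overlapping gene, and for transcripts with a new symbol or a protein-coding type, and for the others because they were few. The members and lists were chosen with earlier results of these data known. Alternatives were the means as printed, each library left out, no size factors, a pseudocount of 1, and a minimum mean of 10.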

Additional observations from a re-analysis of the deposited data

How the results depend on the processing

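All 34 transcripts kept their direction under the 8 alternatives, and the counts of 29 higher, 5 lower and 3 more than 4-fold lower did not move. For the directions this was settled largely by the selection, since the libraries of the groups overlapped in no row of the table. It therefore says nothing particular about these transcripts. The count more than 4-fold higher ranged between 15 and 20 (16 with all libraries) and the median log2 fold change between 1.69 and 2.14 when a library was left out. Without size factors the median was 2.05 for the transcripts and 1.37 for all genes, a shift of 0.13 for all genes. With the means as printed, the median was 1.91 and the log2 fold change of LOC100506585 was 11.12, as with a pseudocount of 1. That of LOC100289473 was 5.17 as printed. The fold moved by over 1.5 times in 7 transcripts without control library b, in 5 without control library a, and in 1 each without ATRA library a or b. The 10 overlapping pairs that shared a direction and the 5 antisense transcripts with a listed sense gene, NINJ2-AS1 included, kept the same direction as their partner. The selection largely settled this as well. Depth limits the transcripts with 12 or fewer control or ATRA reads. No paired analysis was possible because the columns carry no replicate numbers.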

Other observations

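Noncoding genes with other kinds of name were listed as well. Outside the 34 transcripts, 38 rows were not protein coding in RefSeq or were found by a list of names (microRNA and small nucleolar RNA host genes, intronic transcripts, numbered pseudogenes and well-known long noncoding RNAs). Of these, 24 (63.2%) were higher and 14 lower in ATRA-treated cells, against 61.8% higher in the whole table, with a median log2 fold change of 1.57. The 14 include ORAI1 (log2 -1.04), which entered through a RefSeq type of transcribed pseudogene. The RefSeq types were not checked otherwise, so a row counted here may be a protein-coding gene. The list of names alone found 12 of the rows, 8 (66.7%) higher and 4 lower, with a median of 1.45. The largest differences upward among the 38 were those of NCF1C (log2 7.66) and NCF1B (log2 6.87), pseudogenes of the oxidase subunit gene NCF1 with which they may share reads, followed by HSPA7 (log2 5.81) and GVINP1 (log2 5.25). HOTAIRM1, a long noncoding RNA of the HOXA cluster, had 1076 and 680 normalized reads in ATRA-treated cells against 182 and 228 in control cells, 4.29-fold higher.

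The largest difference downward among the 38 was that of the long noncoding RNA CCDC26, with 10.9 and 4.99 normalized reads in ATRA-treated cells against 234 and 270.4 in control cells (log2 -4.99). DUSP5P1, a pseudogene of a dual-specificity phosphatase, had 7.28 and 6.98 against 98.2 and 188 (log2 -4.33), and MIR4697HG had 137 and 194 against 736 and 1253 (log2 -2.58). The long noncoding RNAs C10orf91, C17orf51, FAM201A and FAM95C had log2 fold changes of -2.27, -2.16, -1.81 and -1.15. SNHG7 and SNHG15, both hosts of small nucleolar RNAs, had -0.99 and -1.58.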
